A study of Homo sapiens with 12 samples.

Results

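ANKRD52, MAPRE3, PLPPR2 and GALNT1 are 4 of the 11164 genes tested in this series. They were chosen because their p-values for a drop with doxycycline in the control subline of the study were among the lowest. That subline carries a scrambled hairpin, and because of the choice its drop is described here and was not tested. The annotation gives these 4 genes 5 probes out of 47323 on the array. The cells were 22Rv1, an established human prostate cancer line, grown in RPMI medium with 10% fetal bovine serum, and RNA levels were read on Illumina HumanHT-12 v4 bead arrays. All 3 sublines carried a doxycycline-inducible short hairpin RNA. The 6 groups of 2 arrays were the scrambled subline with doxycycline (shScr-Dox) and without it (shScr), the subline with hairpin 1 against HNF4G with it (HNF4Gsh1-Dox) and without it (HNF4Gsh1), and the subline with hairpin 2 with it (HNF4Gsh2-Dox) and without it (HNF4Gsh2). Doxycycline was given for 3 days. Each hairpin was carried by 1 subline, and the labels do not say whether a subline was a clone, which vector drove the hairpin or whether replicates came from different cultures. The p-values therefore reflect array-to-array spread alone, part of which may be technical.

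The 4 genes act in separate parts of the cell. ANKRD52 is an ankyrin repeat subunit of protein phosphatase 6, a serine and threonine phosphatase built from a catalytic subunit, a SAPS-domain subunit and an ankyrin repeat subunit. MAPRE3 encodes EB3, one of the end-binding proteins that ride on the growing plus ends of microtubules and recruit other proteins there. PLPPR2 is a membrane protein related in sequence to the lipid phosphate phosphatases. GALNT1 is a Golgi enzyme that attaches the first sugar, N-acetylgalactosamine, to serine and threonine in mucin-type O-glycosylation. In a doxycycline-inducible hairpin line the drug releases transcription of the hairpin, which is processed into a short RNA that guides messenger RNA cleavage. A scrambled hairpin is meant to have no target and is used to show what the drug and the induction do on their own.

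The promoters of the members are shown as a description only. The genes come from separate pathways, and being low on the same arrays is what they were selected for. A shared promoter feature was not tested. RefSeq windows on GRCh38.p14, running from 250 bases before to 50 bases after a transcription start, were found for 3 of the 4 genes, 6 windows in all, and for each gene the one richest in G and C is printed, with GC boxes in capitals.
ANKRD52, chr12:56258335-56258634, strand minus: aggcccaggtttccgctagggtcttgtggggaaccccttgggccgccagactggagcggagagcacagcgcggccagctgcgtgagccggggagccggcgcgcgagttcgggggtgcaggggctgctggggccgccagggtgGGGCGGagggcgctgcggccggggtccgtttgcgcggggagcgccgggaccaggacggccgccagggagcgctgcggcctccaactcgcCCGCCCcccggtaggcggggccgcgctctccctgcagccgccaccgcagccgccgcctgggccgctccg
MAPRE3, chr2:26970387-26970686, strand plus: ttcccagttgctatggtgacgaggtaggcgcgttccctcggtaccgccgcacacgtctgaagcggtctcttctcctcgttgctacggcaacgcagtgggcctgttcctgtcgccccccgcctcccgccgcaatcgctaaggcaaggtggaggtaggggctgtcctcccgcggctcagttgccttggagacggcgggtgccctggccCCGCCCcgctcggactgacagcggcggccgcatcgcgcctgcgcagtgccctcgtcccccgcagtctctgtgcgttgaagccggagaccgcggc
GALNT1, chr18:35581490-35581789, strand plus: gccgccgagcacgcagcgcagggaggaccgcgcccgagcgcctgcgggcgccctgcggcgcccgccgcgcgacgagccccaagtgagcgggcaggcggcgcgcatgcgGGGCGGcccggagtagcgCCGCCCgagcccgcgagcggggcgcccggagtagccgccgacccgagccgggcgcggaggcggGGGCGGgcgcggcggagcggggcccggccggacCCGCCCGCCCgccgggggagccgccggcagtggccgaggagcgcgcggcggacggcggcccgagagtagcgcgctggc
G and C made up 78.67% of the printed window of ANKRD52, 69.33% of that of MAPRE3 and 86% of that of GALNT1, against a median of 58.67% and an upper quartile of 68% over all 35116 windows. The number of CpG pairs was 38, 35 and 62 in the same order, against a median of 14. The GC box (GGGCGG, either strand) occurred in the 3 printed windows, with 2, 1 and 5 matches that may overlap, and in 44.95% of all windows. A second MAPRE3 window and the window of the most upstream GALNT1 start held 4 and 9 CpG pairs and no GC box, but each held 1 CCAAT box (CCAAT, either strand), which 34.61% of all windows hold. None of the 6 windows held a TATA box (TATAAA, 11.53% of all windows), the palindromic cAMP response element (TGACGTCA, 1.848%), the palindromic E-box (CACGTG, 7.256%) or the letters CAAAGTCCA of an HNF4 site (0.3844%), on either strand. These matches describe the letters of these windows only, and the windows were picked for their base content.

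The median intensity per array was 92.5 to 108 and 14959 to 18293 probes per array were above background, meaning a detection p under 0.01. The shScr-Dox replicate 1 array was the lowest in both measures, with 97.2 and 15783 as the lowest of the other 11 arrays. HNF4G, the target of the hairpins, stayed under background on HNF4Gsh1-Dox and HNF4Gsh2-Dox, and was above it on all other arrays. It fell at least 2.08-fold with hairpin 1 (limma, adjusted p = 8.01e-04) and at least 2.48-fold with hairpin 2 (adjusted p = 8.50e-05). Of 9 luminal prostate markers with a probe, 7 were above background on all 12 arrays, while KLK2 was on 9 arrays and KLK3, which encodes prostate-specific antigen, on 1. None of the 3 basal markers with a probe (KRT5, KRT14 and KRT15) was above background on any array. Of 6 neuroendocrine markers 3 (CHGB, SYP and ENO2) were above background on all 12 arrays, while INSM1 was on 6, CHGA on 2 and NCAM1 on none. Of 5 immune markers with a probe only CD68 was above background on all 12 arrays, while CD14 was on 2 and PTPRC, CD3E and LYZ were on none.

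**Figure D1:**
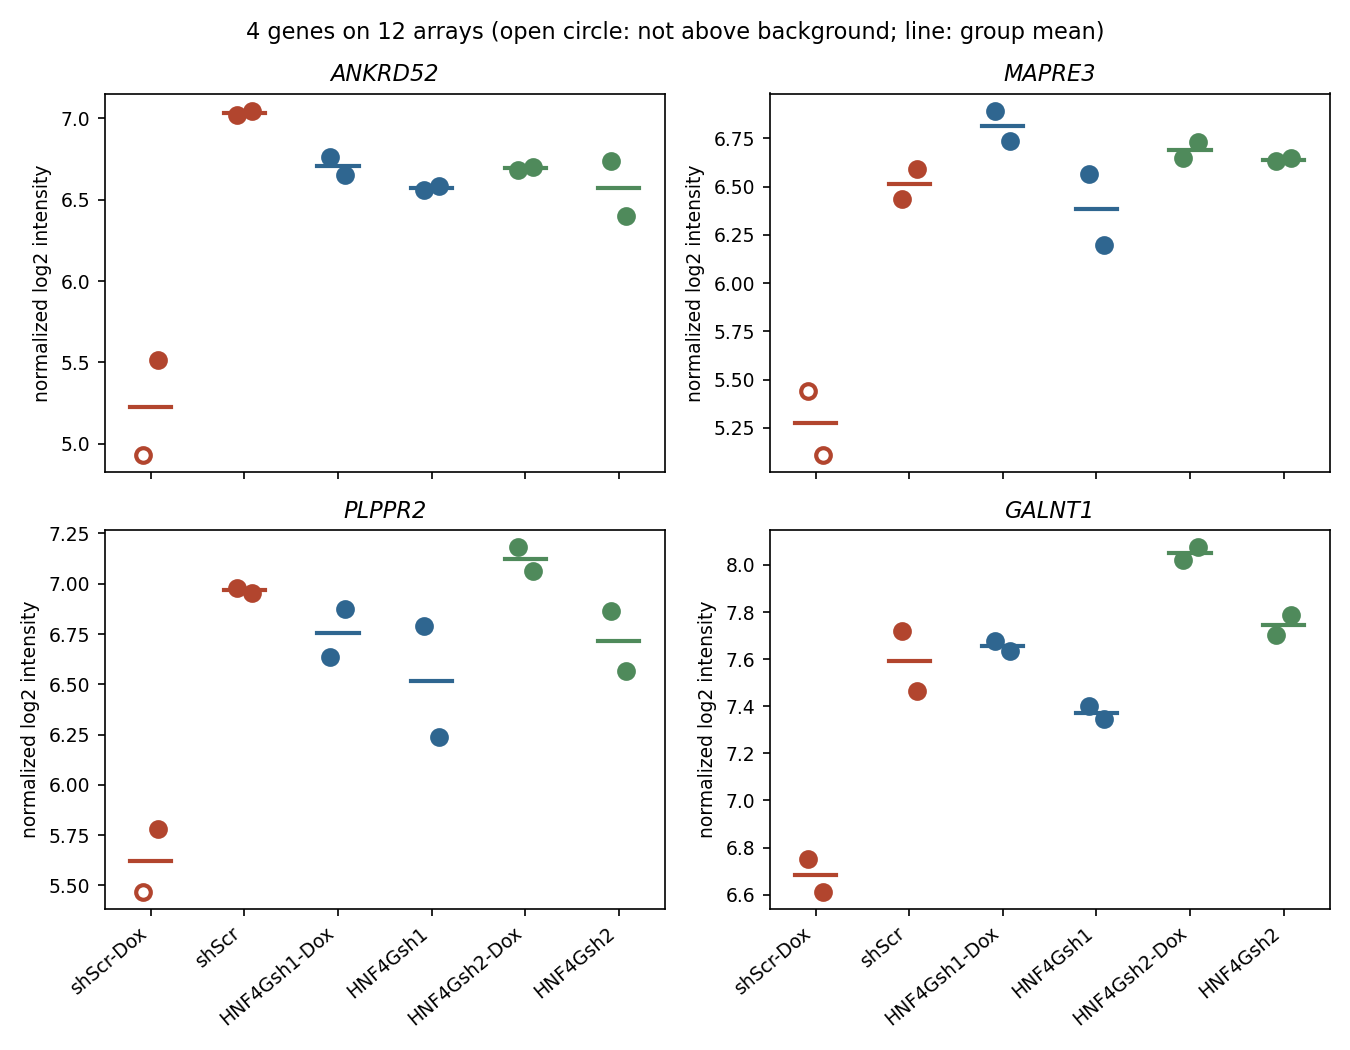
Normalized log2 intensity (vertical axis) of the 4 genes on each of the 12 arrays, by group. Circles are arrays, open where the probe was not above background, and lines are group means. Both shScr-Dox arrays lie below the other 10 arrays in each panel.

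ANKRD52 had the widest difference in the scrambled subline. Its normalized log2 intensity was 4.93 and 5.52 on the shScr-Dox arrays, against 7.02 and 7.05 on the shScr arrays. In the hairpin 1 subline it was 6.76 and 6.65 with doxycycline and 6.56 and 6.58 without. In the hairpin 2 subline it was 6.68 and 6.70 with doxycycline and 6.74 and 6.40 without. The scrambled arrays thus hold both the lowest and the highest values of this gene, and the 8 arrays with an HNF4G hairpin lie between them. The change in the scrambled subline was -1.81 ± 0.19 (limma standard error, 2 arrays per group), or 3.51-fold lower with doxycycline. On the shScr-Dox replicate 1 array the probe was not above background (intensity 97.3), and on replicate 2 it was (intensity 124). In a bulk RNA sample, fewer cells expressing a gene and less RNA per cell cannot be told apart.

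MAPRE3 was not above background on either shScr-Dox array. Its normalized log2 intensity there was 5.44 and 5.11, against 6.44 and 6.59 on the shScr arrays. In the hairpin 1 subline it was 6.89 and 6.74 with doxycycline and 6.57 and 6.20 without. In the hairpin 2 subline it was 6.65 and 6.73 with doxycycline and 6.63 and 6.65 without. The shScr arrays were within the range of the hairpin arrays, and the shScr-Dox arrays were below all others. The change in the scrambled subline was -1.24 ± 0.17, and because the probe was below background with doxycycline the fold is a bound, at least 2.28-fold lower. The bound sets the shScr mean against the higher of the lowest detected signal of each shScr-Dox array and the signal of the probe there.

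PLPPR2 had normalized log2 intensities of 5.47 and 5.78 on the shScr-Dox arrays, against 6.98 and 6.96 on the shScr arrays. In the hairpin 1 subline they were 6.64 and 6.87 with doxycycline and 6.79 and 6.24 without. In the hairpin 2 subline they were 7.18 and 7.06 with doxycycline and 6.87 and 6.57 without. Both HNF4Gsh2-Dox arrays were above all others, and the shScr arrays came next. The change in the scrambled subline was -1.34 ± 0.20, or 2.54-fold lower, with the probe above background on 1 of the 2 shScr-Dox arrays (replicate 2).

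GALNT1 was above background on all 12 arrays at the probe that was tested. Its normalized log2 intensity was 6.75 and 6.61 on the shScr-Dox arrays, against 7.72 and 7.46 on the shScr arrays. In the hairpin 1 subline it was 7.68 and 7.63 with doxycycline and 7.40 and 7.35 without. In the hairpin 2 subline it was 8.02 and 8.07 with doxycycline and 7.70 and 7.79 without. The HNF4Gsh2-Dox arrays were the highest for GALNT1, above both HNF4Gsh2 arrays. The shScr replicate 1 array (7.72) was above HNF4Gsh2 replicate 1 (7.70). The change in the scrambled subline was -0.91 ± 0.15, or 1.88-fold lower. The second GALNT1 probe was not above background on any array, with a lowest detection p of 0.399. Its group means were 4.33 to 4.41, and the arrays of each group overlapped those of the next in order.

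By the order of group means, shScr-Dox was the lowest group for all 4 genes, and its arrays did not overlap those of the next group, which was HNF4Gsh1 each time. The gap of the means to that group was 1.35 for ANKRD52, 1.11 for MAPRE3, 0.89 for PLPPR2 and 0.69 for GALNT1. Among the 5 other groups, HNF4Gsh1-Dox, HNF4Gsh2-Dox, HNF4Gsh2 and HNF4Gsh1 followed shScr for ANKRD52, and each of these 4 overlapped its neighbour. For MAPRE3 shScr and HNF4Gsh1 overlapped, while HNF4Gsh1-Dox, HNF4Gsh2-Dox and HNF4Gsh2 stood above them in that order with gaps of 0.12, 0.05 and 0.13 between means. For PLPPR2 HNF4Gsh1-Dox, HNF4Gsh2 and HNF4Gsh1 overlapped in that order below HNF4Gsh2-Dox and shScr. For GALNT1 the order was HNF4Gsh2-Dox, HNF4Gsh2, HNF4Gsh1-Dox, shScr and HNF4Gsh1. The arrays of shScr overlapped those of HNF4Gsh1-Dox and also those of HNF4Gsh2.

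Both shScr-Dox arrays lay below the other 10 arrays for 4 of 4 members, as they did for 3.47% of the 11164 genes. Within the scrambled subline both doxycycline arrays were below both others for 4 of 4 members and for 20.1% of all genes. Over all genes 0.0269% had an adjusted p under 0.05 in this contrast. The members were selected on it, so none of these counts says more than the selection. The selection used the rank of the p-value and not a fold. GALNT1 was the last gene taken, at rank 5. AKR1C2, a steroid-reducing enzyme at rank 4, is not a member and had a change of -1.17 ± 0.19. Unlike the members it was also lower with doxycycline in the hairpin sublines, by -1.59 with hairpin 1 and -1.86 with hairpin 2. The next ranks were EIF2S2, the beta subunit of translation initiation factor 2 (-0.92 ± 0.15), DYNLRB1, a dynein light chain (-1.02 ± 0.17), the glutamate transporter SLC1A3 (-0.96 ± 0.17), the centrosomal protein CEP57 (-0.97 ± 0.18) and the neuronal membrane protein SLITRK5 (-0.88 ± 0.17). With hairpins 1 and 2 SLITRK5 changed by -0.69 and -1.18, SLC1A3 by -0.22 and -0.39 and EIF2S2 by 0.07 and -0.64. DYNLRB1 changed by 0.08 and -0.09, and CEP57 by 0.06 and 0.09.

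The scrambled subline also differed from the hairpin sublines when groups of the same treatment were set side by side. With doxycycline, shScr-Dox minus the mean of HNF4Gsh1-Dox and HNF4Gsh2-Dox was -1.48 ± 0.16 for ANKRD52, -1.48 ± 0.15 for MAPRE3, -1.32 ± 0.17 for PLPPR2 and -1.17 ± 0.13 for GALNT1. Without doxycycline, shScr minus the mean of HNF4Gsh1 and HNF4Gsh2 was 0.46 ± 0.16 for ANKRD52 and 0.35 ± 0.17 for PLPPR2. It was 0.00 ± 0.15 for MAPRE3 and 0.03 ± 0.13 for GALNT1. For ANKRD52 and PLPPR2 the shScr arrays were thus high before induction as well as low after it, whereas for MAPRE3 and GALNT1 the difference lay in the doxycycline arrays. These differences share the scrambled arrays that the selection used and have no test.

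The selection did not use the changes in the HNF4G hairpin sublines, which show how the same genes moved when an HNF4G hairpin was induced. It did use the spread of the hairpin arrays, because the limma fit pools the spread of all groups into a standard error for each gene. A rank by p-value favours small standard errors, and the hairpin tests and intervals rest on the same pooled spread. Their p-values may therefore be too low and their intervals too narrow, and only the size and sign of the hairpin changes are free of the selection. With hairpin 1 the changes were 0.14 for ANKRD52, 0.43 for MAPRE3, 0.24 for PLPPR2 and 0.28 for GALNT1. With hairpin 2 they were 0.12, 0.05, 0.41 and 0.30 in the same order. All 8 estimates were above 0, where the median over all genes was 0.01 for both hairpins, but none passed the test. By limma 0 of 4 members passed with hairpin 1, where 1.06% of genes did, and 0 of 4 with hairpin 2, where 2.07% did. An unadjusted p under 0.05 was found for 1 of 4 with hairpin 1, and for 1378 of all 11164 genes. With hairpin 2 it was found for 0 of 4, and for 1720 of all 11164 genes.

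For ANKRD52 the 95% interval of the change ran from -0.27 to 0.54 with hairpin 1 (limma, adjusted p = 0.831) and from -0.28 to 0.52 with hairpin 2 (adjusted p = 0.810). The interval of MAPRE3 with hairpin 1 ran from 0.06 to 0.80 (adjusted p = 0.319), and with hairpin 2 from -0.32 to 0.42 (adjusted p = 0.923). Intervals are not adjusted for the number of genes, so that one can leave out 0 while the adjusted p misses the threshold. PLPPR2 had intervals of -0.18 to 0.66 (adjusted p = 0.678) and -0.02 to 0.83 (adjusted p = 0.343). GALNT1 had intervals of -0.04 to 0.60 (adjusted p = 0.480) and -0.02 to 0.62 (adjusted p = 0.350). None of the 8 intervals reached below -0.32, while the changes in the scrambled subline were -0.91 to -1.81. The scrambled changes are those that the selection took, which favours large falls, so setting them beside these intervals is a description and not a test.

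**Figure D2:**
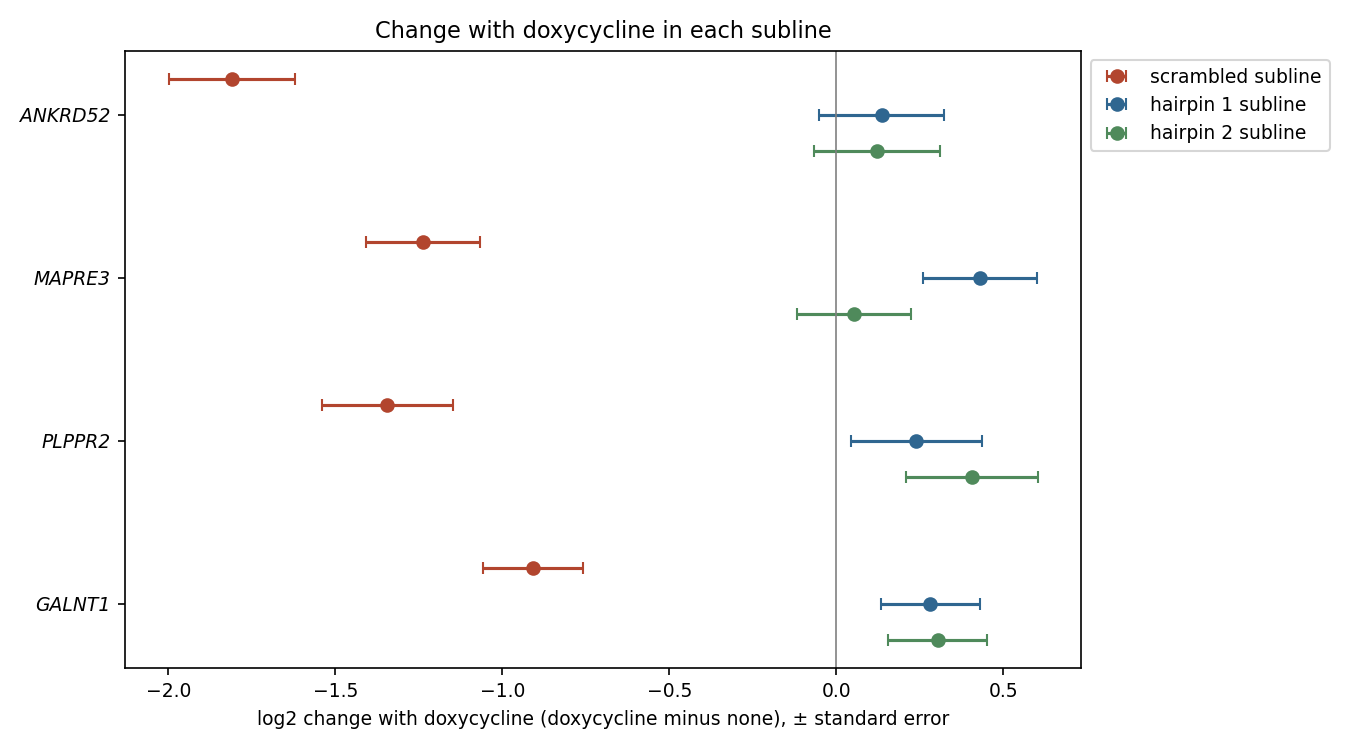
Log2 change with doxycycline (horizontal axis, doxycycline minus none) of each gene in the scrambled, hairpin 1 and hairpin 2 sublines, with the limma standard error as the bar. The changes in the scrambled subline run from -0.91 to -1.81 and those with the HNF4G hairpins from 0.05 to 0.43.

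With hairpin 1 both doxycycline arrays were above both others for 3 of 4 members (not PLPPR2), where 23.3% of genes were. With hairpin 2 they were for 3 of 4 (not ANKRD52), where 24.6% were. Whether arrays stand apart depends on the spread of the hairpin arrays, which the selection used, so these counts are not free of it. Averaged over both hairpin sublines, GALNT1 had a change of 0.29 ± 0.11 (interval 0.07 to 0.52, limma, adjusted p = 0.163) and PLPPR2 of 0.32 ± 0.14 (interval 0.02 to 0.62, adjusted p = 0.248). MAPRE3 had 0.24 ± 0.12 (adjusted p = 0.333) and ANKRD52 0.13 ± 0.13 (adjusted p = 0.695). In this mean 0 of 4 members passed, where 2.76% of all genes did. An unadjusted p under 0.05 was found for 2 of 4 members, and for 1919 of all 11164 genes. The hairpin 1 estimate of PLPPR2 was -0.04 without HNF4Gsh1 replicate 2, and the hairpin 2 estimate of ANKRD52 was -0.05 without HNF4Gsh2 replicate 2.

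The responses to the hairpins were also set against each other. Hairpin 1 minus hairpin 2 was 0.01 (interval -0.56 to 0.59) for ANKRD52, 0.38 (-0.14 to 0.90) for MAPRE3, -0.17 (-0.76 to 0.43) for PLPPR2 and -0.02 (-0.47 to 0.43) for GALNT1. By limma 0 of 4 passed, as against 0.206% of genes. An unadjusted p under 0.05 was found for 0 of 4, and for 1226 of all 11164 genes. The intervals are wide enough to hold differences of the size of the changes themselves. Without doxycycline, HNF4Gsh1 minus HNF4Gsh2 was 0.00 for ANKRD52, -0.26 for MAPRE3, -0.20 for PLPPR2 and -0.37 for GALNT1 (interval -0.69 to -0.05, limma, adjusted p = 0.951). Here 0 of 4 passed, where 0.00896% of all genes did. An unadjusted p under 0.05 was found for 1 of 4, and for 565 of all 11164 genes. Both HNF4Gsh1 arrays were below both HNF4Gsh2 arrays for MAPRE3 and GALNT1, and for 17.6% of all genes. This count too depends on the spread of the hairpin arrays, which the selection used.

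The genes that work with each member were taken from lists of their complex or pathway. For ANKRD52 these were the other 6 subunits of protein phosphatase 6, all tested: the catalytic subunit PPP6C, PPP6R1, PPP6R2, PPP6R3, ANKRD28 and ANKRD44. None passed in the scrambled subline, where their median change was 0.00, nor with either hairpin (medians 0.17 and -0.05), against all-gene medians of -0.01, 0.01 and 0.01. The 2 with the smallest p in any comparison were PPP6R2, a SAPS-domain subunit, and ANKRD28, another ankyrin repeat subunit. PPP6R2 had normalized log2 intensities of 6.73 and 6.59 on the shScr-Dox arrays, against 5.81 and 6.22 on the shScr arrays. The shScr arrays were its lowest of the 12, and the doxycycline arrays of this subline lay within the range of the hairpin arrays, 6.46 to 6.80. Its change in the scrambled subline was 0.65 ± 0.17, of opposite sign to that of ANKRD52, and did not pass (limma, adjusted p = 0.255). It was 0.22 ± 0.17 with hairpin 1 and -0.01 ± 0.17 with hairpin 2. The change of ANKRD28 was -0.12 ± 0.20 in the scrambled subline, 0.32 ± 0.20 with hairpin 1 and -0.33 ± 0.20 with hairpin 2, none of which passed.

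For MAPRE3, 19 of 23 other microtubule plus-end genes were tested, among them the paralogs MAPRE1 and MAPRE2. None passed in the scrambled subline (median -0.12) or with either hairpin alone (0.02 and -0.13). In the scrambled subline their changes ran from -0.59 ± 0.14 for CLASP1 (limma, adjusted p = 0.218) to 0.45 ± 0.22 for CLIP4 (adjusted p = 0.532). In the mean over both hairpins 1 of 19 rose, 0 fell and 18 did not pass. That gene was STIM1, a calcium sensor of the endoplasmic reticulum that binds end-binding proteins (0.59 ± 0.12, limma, adjusted p = 0.0217). Its normalized log2 intensity was 7.29 and 7.39 on the HNF4Gsh1-Dox arrays, against 6.55 and 6.76 on the HNF4Gsh1 arrays. It was 6.98 and 6.85 on the HNF4Gsh2-Dox arrays, against 6.38 and 6.48 on the HNF4Gsh2 arrays. In the scrambled subline STIM1 had a change of 0.14 ± 0.18. Its call was kept in 5 of the 12 fits that left out 1 array, and the adjusted p was 0.0546 to 0.0857 without HNF4Gsh1 replicate 1 or any HNF4Gsh1-Dox, HNF4Gsh2 or HNF4Gsh2-Dox array.

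For PLPPR2, 8 of 11 other lipid phosphate phosphatases and relatives were tested. None passed in the scrambled subline (median -0.02) or with hairpin 1 (0.03), and 1 rose with hairpin 2 (median 0.12) and another in the mean of both hairpins (median 0.09), with 0 falls. With hairpin 2 it was PLPP1, an enzyme that dephosphorylates phosphatidic acid and related lipids (0.77 ± 0.15, limma, adjusted p = 0.0187). PLPP1 had a mean normalized log2 intensity of 11.71 on the HNF4Gsh2-Dox arrays, against 10.94 on the HNF4Gsh2 arrays, and the groups did not overlap. It had a change of -0.05 ± 0.15 with hairpin 1 and of -0.24 ± 0.15 in the scrambled subline, and the difference between the hairpins did not pass (-0.82 ± 0.21, adjusted p = 0.153). The PLPP1 call was lost without any 1 of the 4 arrays of the hairpin 2 subline (adjusted p = 0.0681 to 0.172). In the mean it was PLPPR4, a relative of PLPPR2 known from synapses (0.81 ± 0.15, adjusted p = 0.00845). PLPPR4 had a change of 0.88 ± 0.21 with hairpin 1, of 0.74 ± 0.21 with hairpin 2 and of -0.39 ± 0.21 in the scrambled subline, and its call in the mean was lost without HNF4Gsh2-Dox replicate 2 (adjusted p = 0.0534).

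For GALNT1, 14 of 31 other genes of mucin-type O-glycosylation were tested. None passed in the scrambled subline (median 0.11), with hairpin 1 (0.06), with hairpin 2 (-0.04) or in their mean (0.01). GALNT7 and GALNT3, other transferases of the first step, had the smallest p. GALNT7 was not above background on the shScr-Dox or the HNF4Gsh1-Dox arrays, and was above it on both shScr and both HNF4Gsh1 arrays. Its measured change was -0.60 ± 0.16 in the scrambled subline (limma, adjusted p = 0.255) and -0.44 ± 0.16 with hairpin 1 (adjusted p = 0.246), both bounded by background. With hairpin 2 its change was 0.45 ± 0.16 (limma, adjusted p = 0.166), with the probe above background on both HNF4Gsh2-Dox arrays and 1 of 2 HNF4Gsh2 arrays. GALNT3 had a change of 0.43 ± 0.19 with hairpin 1 (adjusted p = 0.388) and was below background on all 4 arrays of the hairpin 2 subline.

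Genes with the most similar pattern were ranked by Pearson r of normalized log2 intensity over the 12 arrays, and the 3 highest for each member are given as a description. The shScr-Dox arrays lie apart for the members, so r rests largely on how low a gene was there. For ANKRD52 they were PLPPR2 (r = 0.91), the RNA-binding protein SAMD4B (0.90) and BAD, a cell death regulator of the BCL2 family (0.89). For MAPRE3 they were CHFR, a mitotic checkpoint ubiquitin ligase (0.94), DYNLRB1 (0.94) and LUM, a matrix proteoglycan (0.92). For PLPPR2 they were the zinc finger gene ZNF85 (0.94), SCARA3 (0.93) and NDEL1, a dynein regulator (0.91). For GALNT1 they were FAM114A1 (0.93), MAPRE3 (0.90) and the Golgi membrane protein GOLM1 (0.90). Their changes in the scrambled subline ran from -0.35 for BAD to -1.02 for DYNLRB1 among the 10 that are not members, and none of the 10 passed with either hairpin. ZNF85 and FAM114A1 were not above background on either shScr-Dox array, so their changes there are bounded by background. Among the 6 pairs of members r ran from 0.80 to 0.91 over the 12 arrays and from 0.27 to 0.75 over the 8 arrays of the hairpin sublines.

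LUM is also a stromal marker. Its normalized log2 intensity was 5.31 and 5.18 on the shScr-Dox arrays, above background on 1 of 2, against 6.04 and 6.17 on the shScr arrays, and 6.23 to 6.79 on the 8 hairpin arrays. Of the 7 stromal markers listed, 4 (COL1A1, COL1A2, COL3A1 and PDGFRB) were not above background on any array. ACTA2 was above background on 12 arrays, LUM on 11 and DCN on 8. The summed normalized intensity of the 7 was 267 to 286 on the shScr-Dox arrays and 275 to 315 on the shScr arrays. It was 302 to 317 and 317 to 325 with and without doxycycline in the hairpin 1 subline, and 339 to 361 and 301 to 331 in the hairpin 2 subline. The sum includes LUM, which was picked for its likeness to MAPRE3, and the 4 markers that were not above background. It does not show whether the stromal markers other than LUM differed between groups. The part of these markers in the members' changes was not tested.

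**Figure D3:**
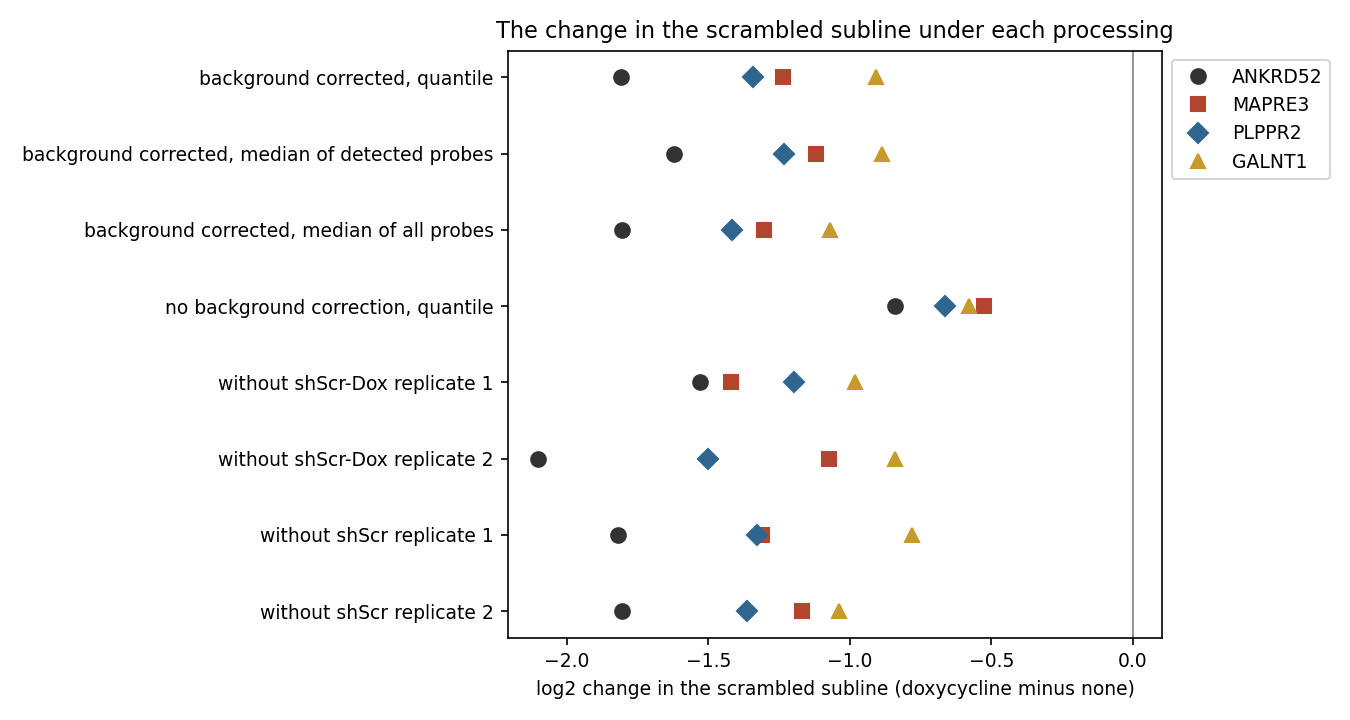
Log2 change in the scrambled subline (horizontal axis, doxycycline minus none) of the 4 genes under 8 settings, 4 of which leave out 1 array. All values are below 0, and without background correction they shrink to between -0.53 and -0.84.

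The size of the difference in the scrambled subline depended on the background correction. Log2 intensities with quantile normalization and no background correction gave -0.84 for ANKRD52, -0.53 for MAPRE3, -0.66 for PLPPR2 and -0.58 for GALNT1, and the log2 values that the authors deposited gave the same 4 values. On that deposited scale ANKRD52 averaged 6.87 ± 0.14 in shScr-Dox and 7.71 ± 0.01 in shScr (SD, n = 2 each), and GALNT1 averaged 7.50 ± 0.05 in shScr-Dox and 8.08 ± 0.13 in shScr. Without shScr-Dox replicate 1, the dimmest array, the changes were -1.53 for ANKRD52, -1.42 for MAPRE3, -1.20 for PLPPR2 and -0.98 for GALNT1. Without shScr-Dox replicate 2 they were -2.10, -1.07, -1.50 and -0.84. The sign was the same under each of these settings, and the order of the genes by size was not.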

How the data were processed

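RNA of 12 samples of 22Rv1 sublines was measured on 1-colour Illumina arrays, and per the labels 500 ng of total RNA were labelled with biotin. The deposited non-normalized table holds the intensity of each probe in scanner units and its detection p-value, in steps of 1 in 770, and BeadStudio and Partek (versions not given in the sources used here) are named per the submitters' processing notes. The deposited series matrix holds log2 values, of which 99.993% lie within 0.001 of the log2 of the non-normalized table after quantile normalization without background correction.

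The non-normalized table was used, without its 1479 blank lines. The neqc function of limma 3.58.1 (R 4.3.3, with statmod 1.5.0) estimated background from the detection p-values, then used an offset of 16, quantile normalization and the log2 scale. A probe was kept if its detection p was below 0.01 on 2 or more arrays (19172 of 47323). GEO's annotation, which named 1 gene for 30113 probes, several for 8 and none for 17202, left 4405 kept probes without a gene, and matching by gene ID to RefSeq changed 0 symbols. The probe with the highest mean stood for a gene. A limma fit over the 6 groups (6 residual and 7.91 prior degrees of freedom) gave two-sided p-values, adjusted by Benjamini and Hochberg over 11164 genes, with a threshold of 0.05 and 95% intervals. Precision is limited by having 2 arrays in a group. The 2 arrays of a group correlated at 0.989 to 0.991 across genes.

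The members and gene lists were chosen with earlier results of these data known. Named are HNF4G, the members, the 6 genes next in rank, the 3 genes most like each member, and list genes that passed or had the 2 smallest p. CLASP1 and CLIP4 are named as the ends of the range of the plus-end genes in the scrambled subline. The fit was tested on simulated data. Alternatives changed the background correction, the scaling, the filter, the probes, the weights and the replicate block, and left out each array. No slide is given in the headers, so slide was not used as a block.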

Additional observations from a re-analysis of the deposited data

Results flagged for a closer look

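For 6 of the 8 pairs of a member and an HNF4G hairpin, both doxycycline arrays were below both others in the scrambled subline and above both others in the hairpin subline. The hairpin change minus the scrambled change was 1.95 for ANKRD52 with hairpin 1. For MAPRE3 it was 1.67 with hairpin 1 and 1.29 with hairpin 2, and for PLPPR2 1.75 with hairpin 2. For GALNT1 it was 1.19 with hairpin 1 and 1.21 with hairpin 2. These differences were not tested, because the members were selected for their low values with doxycycline in the scrambled subline, and all 6 share its 4 arrays. The changes with the hairpins were 0.05 to 0.43. Both doxycycline arrays were above both others for 23.3% of all genes with hairpin 1 and 24.6% with hairpin 2. Standing apart also depends on the spread of the hairpin arrays, which the selection used. The share of all genes that were apart in both sublines in this way was not counted. No group was large enough to look for a sample far from the others.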

How the results depend on the processing

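Leaving out 1 array at a time (the other 11 normalized again, the same genes kept) moved the count of genes past the threshold to 36 to 120 with hairpin 1 (118 with all arrays), 50 to 218 with hairpin 2 (231), 138 to 302 in the mean of both (308), 2 to 15 in their difference (23) and 1 to 2 without doxycycline (1). Without background correction the counts were 245, 497, 658 and 134 in the first 4, and with the deposited log2 values 245, 498, 659 and 134. Median scaling over all probes gave 118 with hairpin 2 and 2 without doxycycline, all kept probes gave 8 in the difference, and a filter of 6 arrays gave 0 without doxycycline. That scaling also moved the all-gene median to 0.16 with hairpin 1 and -0.19 without doxycycline, and the split of higher and lower calls to 39 and 50 with hairpin 1 (25 and 93 in the report), 132 and 96 in the mean (112 and 196) and 19 and 2 in the difference (15 and 8), while median scaling over detected probes gave 85 and 240 in the mean. No member passed in these 5 comparisons under any alternative run. The PLPP1 call was also lost with median scaling over all probes (adjusted p = 0.103). The causes of these shifts were not tested.

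The replicate differences showed no pattern shared between groups: over 15 pairs of groups their correlation was -0.03 to 0.07. This does not settle whether samples with the same replicate number were handled together. With the replicate number as a block the difference of the hairpins had 13 genes past the threshold, and no member passed.

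The change in the scrambled subline was -0.84 for ANKRD52, -0.53 for MAPRE3, -0.66 for PLPPR2 and -0.58 for GALNT1, both without background correction and with the deposited values, and GALNT1 had -1.07 with median scaling over all probes, where the all-gene median was -0.16. Leaving out 1 array gave -2.10 to -1.53 for ANKRD52, -1.42 to -1.07 for MAPRE3, -1.50 to -1.20 for PLPPR2 and -1.04 to -0.78 for GALNT1. The signs that turned were of values from -0.20 to 0.24 with all arrays, sizes that overlap those of the members' hairpin changes (0.05 to 0.43). Leaving out 1 array, PLPPR2 with hairpin 1 ran from -0.0366 to 0.52 and ANKRD52 with hairpin 2 from -0.0474 to 0.29. The hairpin difference ran from -0.15 to 0.18 for ANKRD52, -0.44 to 0.11 for PLPPR2 and -0.0649 to 0.0200 for GALNT1. Without doxycycline, hairpin 1 minus hairpin 2 ran from -0.17 to 0.17 for ANKRD52 and -0.48 to 0.0753 for PLPPR2. With median scaling over the probes detected on all arrays the ANKRD52 hairpin difference was -0.00197 and its value without doxycycline 0.0122, and over all probes the GALNT1 hairpin difference was 0.12, where the all-gene median was 0.13. Slide as a block was not run, since the headers give no slide.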
